A study of Mus musculus with 23 samples.

Results

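The Notch pathway components described here are 31 mouse genes of 6 roles. They are 4 ligands (Dll1, Dll4, Jag1, Jag2), 4 receptors (Notch1, Notch2, Notch3, Notch4) and 3 fringe glycosyltransferases (Mfng, Lfng, Rfng). To these come 6 genes for receptor proteases and their partners (Adam10, Adam17, Psen2, Ncstn, Aph1a, Psenen). A further 7 encode the nuclear complex and its coregulators (Rbpj, Maml1, Maml2, Maml3, Spen, Ctbp1, Snw1), and 7 encode endocytic and ubiquitin regulators (Numb, Numbl, Dtx2, Dtx3, Dtx4, Itch, Fbxw7). Peaks of open chromatin that overlapped in any of the 23 libraries were merged into 155137 regions. A region was given to the protein-coding gene whose body lay closest, up to 50 kb away, and counted here when that gene is a member. By this rule 503 of the 155137 regions belonged to the 31 members, out of 21627 protein-coding genes in all.

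The libraries are ATAC-seq libraries, in which a transposase inserts adapters into accessible DNA, and they form 11 groups. In the repopulation experiment, mice with the Clec4f-cre and Rosa26iDTR alleles express the receptor for diphtheria toxin in Kupffer cells, the macrophages resident in the liver sinusoids. From these mice came Kupffer cells after PBS (2 libraries) and repopulating liver macrophages 24 h (3 libraries) and 48 h (2 libraries) after diphtheria toxin. Ly6C-high monocytes of the blood (2 libraries) came from C57BL/6J mice without treatment. These differ from the 24 h and 48 h groups in strain, tissue and toxin together, and from PBS Kupffer cells in strain, tissue and PBS. In the Nr1h3 experiment, which concerns the nuclear receptor LXR alpha, TIM4+ Kupffer cells of Nr1h3 flox/flox controls, TIM4+ cells of Nr1h3 flox/flox Clec4f-cre +/- mice and TIM4- cells of the same genotype gave 2 libraries each. TIM4 is a surface receptor of resident Kupffer cells, and Clec4f-cre acts only in cells that have expressed Clec4f. The Smad4 experiment held 2 Kupffer cell libraries with knockout in the title and 2 with control, all from Smad4 flox/flox mice. By the strain labels the Clec4f-cre +/- allele is in the libraries with control in the title, so each Smad4 direction below is that of the titles, and the strain labels would give the opposite one. Bone marrow-derived macrophages (BMDM) of C57BL/6J mice, cultured for 4 days, were left untreated (2 libraries) or given the Notch ligand DLL4 for 24 h (2 libraries). Deletion of Nr1h3 or Smad4 cannot be checked from accessibility at these genes. The labels do not state for every library that it came from its own animal or culture, so the p-values measure the spread between these libraries, which may be technical in part.

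Notch signalling runs between touching cells. A ligand of the Delta-like or Jagged family binds a Notch receptor whose sugar chains fringe enzymes have modified, and the bound receptor is cut first by ADAM proteases and then by gamma-secretase, the complex that holds presenilin, nicastrin, APH1 and PEN2. The freed intracellular part enters the nucleus, joins the DNA-binding protein RBPJ and a Mastermind coactivator, and displaces corepressors such as SPEN and CTBP1 from target genes such as Hes1. Numb, Itch, the Deltex proteins and FBXW7 act on receptor trafficking and turnover. In the liver, sinusoidal endothelial cells present DLL4 to the macrophages beside them.

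The 503 member regions were spread unevenly over the genes. Maml3, Maml2, Notch2 and Fbxw7 held 66, 61, 41 and 36 of them, and Aph1a held 1. The first of these genes are also long: Maml3 spans 418 kb (chr3:51687320-52105319, mm10) and Maml2 spans 413 kb (chr9:13296561-13709533). Of all member regions, 27 overlapped a start site window (250 bases before to 50 after an annotated start of transcription), 345 lay elsewhere inside a gene body, 8 at the end of a gene body and 123 outside it. No region of Notch3 or Notch4 overlapped a start site window, so their changes below are all at other positions. The gene table used here gives no exons, so exon and intron are not distinguished. A peak in every library was found at 106 member regions, which is 21.1% of them against 17.2% of all regions, and 79 member regions had a peak in 1 library. At 5 regions a member and another gene were equally near: Rfng with Gps1 at 1, Ncstn with Copa at 2 and Psenen with U2af1l4 at 2.

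The promoters of 6 of the members with a start site region among the results below are printed here so that the positions can be seen. Those of the others (among them Psen2, Numb, Fbxw7, Jag2 and Maml3) are not printed. Each is the stretch before an annotated start, taken from RefSeq (GRCm38.p6, the mm10 assembly), 5′ to 3′ on the gene's strand. Maml2 and Rbpj have 2 annotated starts each, and the stretch printed belongs to a start that lies inside the gene body. Capitals mark the RBPJ core TGGGAA, the PU.1 core GAGGAA and the AP-1 site TGANTCA on either strand. PU.1 is the lineage factor of macrophages and AP-1 a factor of activated cells.
Spen, chr4:141538598-141538847, minus strand: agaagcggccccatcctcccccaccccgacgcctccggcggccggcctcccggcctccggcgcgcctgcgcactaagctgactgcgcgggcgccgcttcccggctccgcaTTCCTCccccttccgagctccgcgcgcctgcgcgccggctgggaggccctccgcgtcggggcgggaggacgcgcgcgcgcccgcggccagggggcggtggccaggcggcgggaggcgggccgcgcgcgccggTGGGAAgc
Notch1, chr2:26503823-26504072, minus strand: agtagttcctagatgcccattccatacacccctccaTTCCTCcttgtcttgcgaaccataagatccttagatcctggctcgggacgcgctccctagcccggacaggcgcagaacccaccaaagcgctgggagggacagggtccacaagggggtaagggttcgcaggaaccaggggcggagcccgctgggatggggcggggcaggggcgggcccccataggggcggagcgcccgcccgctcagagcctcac
Notch2, chr3:98013288-98013537, plus strand: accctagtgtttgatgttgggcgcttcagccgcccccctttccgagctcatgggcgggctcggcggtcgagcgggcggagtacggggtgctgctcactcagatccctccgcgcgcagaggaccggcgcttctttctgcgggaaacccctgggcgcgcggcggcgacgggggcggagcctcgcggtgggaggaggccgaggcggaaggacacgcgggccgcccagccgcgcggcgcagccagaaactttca
Jag1, chr2:137116521-137116770, minus strand: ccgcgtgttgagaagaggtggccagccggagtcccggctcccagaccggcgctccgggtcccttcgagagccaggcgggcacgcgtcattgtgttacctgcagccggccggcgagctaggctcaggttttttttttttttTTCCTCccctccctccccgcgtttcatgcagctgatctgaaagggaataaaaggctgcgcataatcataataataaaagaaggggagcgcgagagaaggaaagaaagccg
Rbpj, chr5:53590096-53590345, plus strand: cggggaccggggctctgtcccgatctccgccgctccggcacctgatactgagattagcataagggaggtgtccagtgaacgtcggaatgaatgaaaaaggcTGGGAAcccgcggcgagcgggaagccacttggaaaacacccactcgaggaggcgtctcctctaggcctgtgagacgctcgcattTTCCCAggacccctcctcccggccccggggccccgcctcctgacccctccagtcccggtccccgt
Maml2, chr9:13662210-13662459, plus strand: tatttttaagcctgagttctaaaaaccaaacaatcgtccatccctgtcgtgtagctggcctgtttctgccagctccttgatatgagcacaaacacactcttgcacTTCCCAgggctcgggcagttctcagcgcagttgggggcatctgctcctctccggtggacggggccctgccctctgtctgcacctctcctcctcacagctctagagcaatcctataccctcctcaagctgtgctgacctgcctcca
The open region covers all 250 bases of the Spen and Maml2 stretches, 217 of Notch2, 186 of Rbpj, 137 of Jag1 and 135 of Notch1. The printed Rbpj stretch holds 2 RBPJ cores, Spen holds 1 RBPJ core and 1 PU.1 core, and the Notch2 stretch holds none of the 3 motifs. Promoter rows were found for 26 of the 31 members, with 35 stretches of 250 bases. The RBPJ core stood in 9 of the 35 (25.7%) against 21.6% of 32851 promoters of all genes, the PU.1 core in 9 (25.7%) against 23.3%, and the AP-1 site in 1 (2.86%, at Dll1) against 6.75%. No motif overlapped another in these stretches. Such a match describes the letters only.

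Depth ran from 10.4 to 18.4 M tags per library and peaks from 48775 to 104206, of which 174 to 346 fell in member regions. Signal is the normalised tag count of a peak, given per 10 M tags of its library. Libraries also differed in the share of tags inside peaks (15.4% to 54.7%), so the median region of each library was subtracted before fold changes were taken. In start site windows, the Kupffer marker list had a peak at 6 to 7 of 9 genes in PBS Kupffer cells, at 3 to 4 at 48 h, at 2 at 24 h and at 1 to 2 in blood, where Clec4f, Timd4, Cd5l and Vsig4 had none. Marco and Nr1h3 had none in blood or in PBS Kupffer cells, so these do not separate them. Their summed signal was 364.0 to 440.0 in PBS Kupffer cells, 404.8 to 482.9 at 48 h, 312.9 to 375.4 at 24 h and 332.9 to 402.4 in blood. The monocyte list had a peak at 4 of 7 genes in blood (summed signal 238.3 to 259.7), at 2 at 24 h (55.4 to 62.6) and 48 h (53.5 to 57.5), and at 0 in PBS Kupffer cells. The dendritic list had 1 of 5 in blood, at Flt3 (215.7 to 300.9), with 74.9 to 90.8 at 24 h and 57.2 to 66.2 at 48 h. Hepatocyte and stellate lists were at 0 in all libraries, and the liver endothelial list had a peak at 0 of 6 genes in PBS Kupffer cells, 1 to 2 in blood (summed signal 7.33 to 21.9), 1 to 2 at 24 h (17.1 to 47.2) and 2 at 48 h (16.8 to 24.4). The macrophage list, with 2 to 3 of 3 windows in blood and all 3 in the liver groups, summed to 175.0 to 185.3 in blood, 267.4 to 365.1 at 24 h, 351.4 to 362.6 at 48 h and 128.0 to 177.3 in PBS Kupffer cells. The part of other cell types in the member differences during repopulation was not tested. In such bulk libraries, fewer cells with an open region and less opening per cell cannot be told apart.

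**Figure D1:**
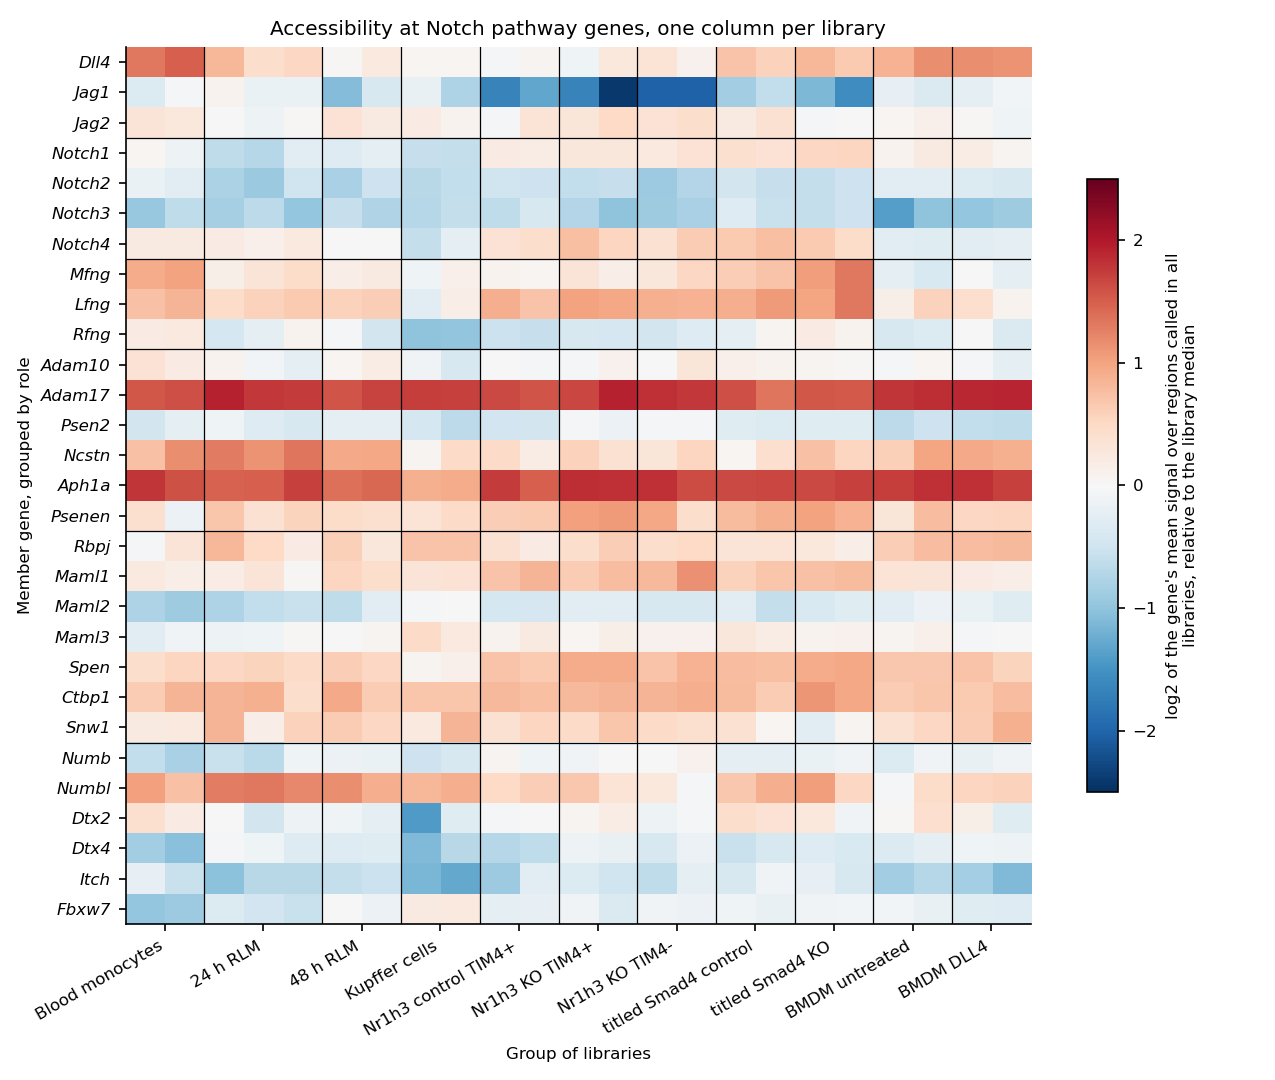
Heat map of the 29 members with a region called in all 23 libraries (rows, by role) over the libraries (columns, by group), coloured by log2 of the gene's mean signal over those regions relative to the median region of the library. It is read along a row. Jag1 runs from 1.06 times the library median in a 24 h library to 0.188 times in a TIM4+ Nr1h3 knockout library, and Fbxw7 is higher in PBS Kupffer cells than in blood.

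In the heat map of relative levels, Dll4 is represented by 1 region, chr2:119337929, which lies outside the gene body. The Dll4 start site window had no peak in blood or DLL4-treated BMDM libraries, and none in untreated BMDM library 1 or PBS Kupffer library 2. The level of that 1 region stood highest in blood monocytes (2.65 ± 0.217 times the library median, SD, n = 2) and DLL4-treated BMDM (2.22 ± 0.0444) and lowest in Nr1h3 control cells (1.01 ± 0.0563). The spread of the Nr1h3 control, PBS Kupffer (1.03 ± 0.00322), TIM4+ knockout (1.07 ± 0.199) and 48 h groups (1.10 ± 0.111) overlaps, so their order is not resolved. Fbxw7, a ubiquitin ligase that marks the freed receptor for decay, ran from 0.523 ± 0.0111 in blood through 0.731 ± 0.0573 at 24 h and 0.953 ± 0.0707 at 48 h to 1.18 ± 0.0106 in PBS Kupffer cells, and the libraries of these 4 groups do not overlap. Maml2 was lowest in blood (0.562 ± 0.0288) and highest in PBS Kupffer cells (0.982 ± 0.0154). Jag1 was lowest in both Nr1h3 knockout groups (0.246 ± 0.00223 in TIM4- and 0.250 ± 0.0883 in TIM4+). The Nr1h3 controls had 0.361 ± 0.0654, and the spread of the TIM4+ knockouts overlaps theirs. Jag1 had 0.948 ± 0.102 at 24 h and 0.907 ± 0.0653 in DLL4-treated BMDM, which overlap. These levels are descriptions over regions open in all libraries and were not tested. Counting every called region, Maml3 had 41.5 and 45 per library in DLL4-treated and untreated BMDM against 19 at 24 h, 28 at 48 h, 25 in PBS Kupffer cells and 24 in blood, and BMDM libraries had more regions over the whole genome as well (84481 to 102973 against 62777 to 68048 at 24 h).

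DLL4 treatment asks what a Notch ligand does to macrophage chromatin, and at the genes of the pathway itself it changed few regions. Of 249 member regions called in all 4 BMDM libraries, 4 rose and 4 fell in DLL4-treated cells (limma, Benjamini-Hochberg adjusted p under 0.05 over all shared regions), which is 3.21% against 3.88% of all shared regions (2.36% higher, 1.52% lower). The share is thus near the background. The 4 that rose were 3 regions inside Dtx4, which encodes a Deltex ubiquitin ligase, and the Spen start site. The 4 that fell were at Adam10, Psen2, Maml2 and Numb. No region of the ligands (10 tested), receptors (47) or fringe genes (12) passed. The median log2 change was -0.02 over member regions and 0.03 over all.

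At Dtx4 (chr19:12466329-12502179), the region at chr19:12483587-12483843 inside the gene had a signal of 33.4 and 43.1 in the DLL4 libraries and 17.2 and 9.63 in the untreated ones. Both treated values lie above both untreated values, and the region rose by 1.45 ± 0.30 (log2, SE; adjusted p = 6e-04, limma). A second Dtx4 region, chr19:12471915-12472264, had 127.2 and 144.3 against 85.4 and 80.6 and rose by 0.67 ± 0.15 (adjusted p = 0.0025). Mpeg1, a gene of macrophages, lies 1044 bp beyond the lower end of Dtx4, so by position these regions may belong to either gene. The remaining Dtx4 region, chr19:12468876-12469108, had 82.8 and 79.4 against 56.5 and 38.5 and rose by 0.75 ± 0.19 (adjusted p = 0.0095). At Spen, a corepressor that binds RBPJ, the start site region chr4:141538499-141539031 had 383.7 and 311.3 in treated and 252.5 and 251.4 in untreated libraries, with a log2 change of 0.42 ± 0.11 (adjusted p = 0.012). This region covers the whole Spen stretch printed above, with its RBPJ core close to the start.

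Lower signal was found at Adam10, the protease of the first receptor cut, in the region chr9:70692377-70692650 (8.72 and 13 against 25.2 and 21.0, log2 change -1.08 ± 0.33, adjusted p = 0.038). Psen2, a catalytic subunit of gamma-secretase, fell in a region outside its gene body, chr1:180293118-180293426 (15.3 and 15.7 against 33.2 and 27.2, -0.95 ± 0.30, adjusted p = 0.049). The coactivator gene Maml2 fell at chr9:13574990-13575253 (26.9 and 23.3 against 49.1 and 44.7, -0.91 ± 0.25, adjusted p = 0.018). Numb, which promotes receptor endocytosis, fell at chr12:83834031-83834269 (28.3 and 26.7 against 46.1 and 49.9, -0.82 ± 0.24, adjusted p = 0.034). In none of the 8 regions did the treated and untreated values overlap, yet the calls rest on 2 libraries a group. Without DLL4 library 1 there were 3 member calls, without DLL4 library 2 there was 1, without untreated library 1 there was 1 and without untreated library 2 there were 6. The strongest Dtx4 region was lost only without DLL4 library 2 (1.28, adjusted p = 0.061), Spen was lost without DLL4 library 1 (0.26, adjusted p = 0.51) or untreated library 1 (0.34, adjusted p = 0.32), and Adam10 (adjusted p 0.053 to 0.34), Psen2 (0.16 to 0.31), Maml2 (0.05 to 0.22) and Numb (0.11 to 0.31) were lost whichever library was left out. With quantile normalisation 3 regions rose and 1 fell, and without centring 6 rose and 1 fell.

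**Figure D2:**
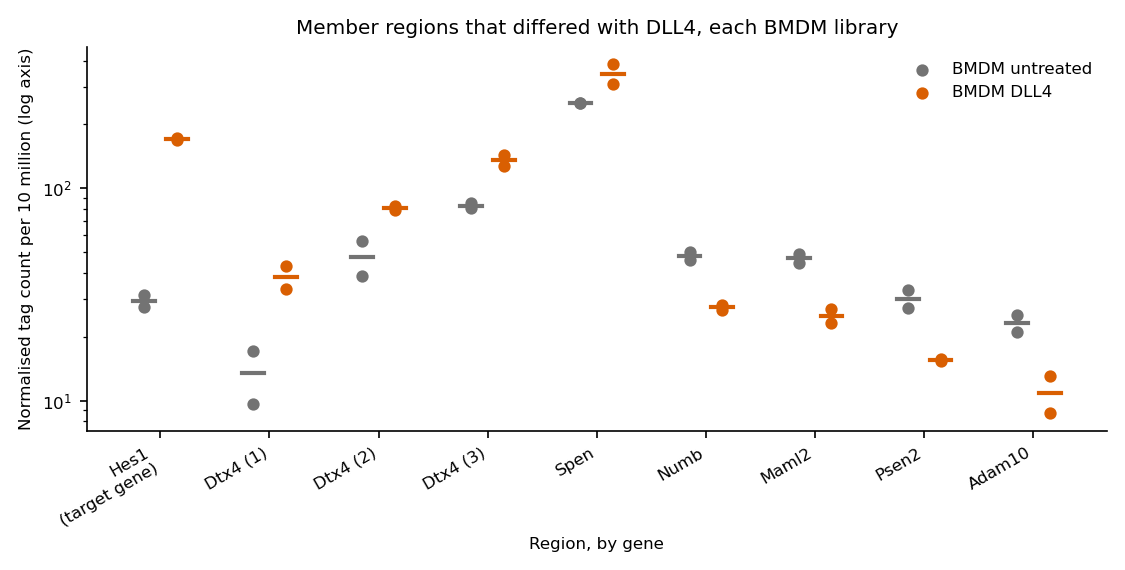
Signal (normalised tag count per 10 M tags, log axis) in each untreated and DLL4-treated BMDM library, for the target gene Hes1 and the 8 member regions past the threshold, ordered by fold change. Points are libraries and bars their means, and Dtx4 (1), (2) and (3) are its regions in order of fold change. Treated and untreated points are separate at each region, with Hes1 at 172.2 and 169.0 against 27.6 and 31.5.

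The ligands and receptors gave ranges of log2 change without a call. Notch1 (14 regions) ran from -0.75 to 0.73, with a smallest adjusted p of 0.11, Notch2 (24 regions) from -0.58 to 0.37 (0.14), Notch3 (4 regions) from 0.22 to 0.51 (0.082) and Notch4 (5 regions) from -0.35 to 0.20 (0.57). Dll4, the gene of the ligand that was added, had 2 shared regions at -0.64 and 0.20 (0.34). Jag1 and Jag2 had 3 each, between -0.24 and 0.27 (0.39) and between -0.07 and 0.23 (0.73), and Dll1 had 2 at 0.13 and 0.16 (0.86). On the log2 scale, planted changes of size 1 were recovered at 87% in simulated data of this comparison, with the median spread at every region. Changes below that size, or at regions with a larger spread, can thus be missed. Of 394 regions called in any of the 4 libraries, 3 were called in both treated libraries and neither untreated library (2.10% of all such regions) and 9 the reverse (2.00%). The 3 were single regions of Maml1, Maml2 and Psen2. Among the 9 were the Spen region at chr4:141535325 (76.2 and 62.2 in the untreated libraries) and the Jag2 region at chr12:112897852 (55.3 and 53.4), but 6 of the 12 lie within 500 bp of a region called in the other group, so such a region need not be closed there.

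Away from the members, the list of Notch target genes had 6 regions that rose and 0 that fell of 34 shared. The Hes1 region chr16:30065071-30065315 had 172.2 and 169.0 in treated and 27.6 and 31.5 in untreated libraries, a log2 change of 2.46 ± 0.18 (adjusted p = 6e-26), and Hey2 rose by 0.41 (adjusted p = 0.021). Among 142 regions of other Notch pathway genes 0 rose and 7 fell, among them Neurl1a (-1.05, adjusted p = 0.040). Without centring the other pathway genes gave 2 higher and 2 lower, so their one-sided count depends on the scaling. Neutrophil start site windows had a peak at 3 to 4 of 6 genes in untreated and 3 in DLL4 libraries (summed signal 87.6 to 93.5 and 73.2 to 79.2), and monocyte windows at 4 to 5 of 7 in both (166.4 to 186.8 and 106.0 to 144.6). The part of other cells in these differences was not tested.

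Repopulation starts when toxin removes the Kupffer cells and monocytes enter the liver. Between blood monocytes and 24 h macrophages, the receptor and ligand regions that passed the test mostly fell and those of the endocytic regulators all rose. Of 150 member regions called in all 5 libraries, 24 rose and 10 fell, 22.7% against 26.0% of all shared regions (16.7% higher, 9.33% lower). Endocytic and ubiquitin regulators had 12 higher and 0 lower of 28 (median log2 change 0.45, all regions 0.09), and the receptors 1 higher and 6 lower of 30 (median -0.20). The nuclear complex had 9 higher and 1 lower of 51, the ligands 0 and 2 of 9, the fringe genes 0 and 1 of 10 and the proteases 2 and 0 of 22. Regions called in 1 group only were not tested, and among these the endocytic regulators had 1 at 24 h and 8 in blood. Of all regions, 3.02% were called only at 24 h and 4.49% only in blood. Centring shifted all changes by 0.27 here: without it 3 member regions rose and 18 fell, with 1 higher and 4 lower in the nuclear complex and 0 and 2 in the proteases, and quantile normalisation gave 12 and 15. The receptor and ligand counts kept their direction under both, and the endocytic regulators had 8 higher with quantile normalisation and 1 without centring, with 0 lower in each.

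At Maml2 the region chr9:13443535-13443854 had 49.6, 40.0 and 43.6 in the 24 h libraries and 12.2 and 11.3 in blood. It rose by 2.09 ± 0.32 (log2, SE; adjusted p = 1.2e-05), and all 24 h values lie above all blood values. Dtx4 had 7 regions that rose, led by chr19:12471915-12472264, which also rose with DLL4 in culture (74.9, 48.1 and 35.1 against 13.8 and 23.3, 1.70 ± 0.31, adjusted p = 0.00015). Fbxw7 had 3 higher regions, the largest at chr3:84921703-84922024 (32.8, 27.2 and 16.1 against 13.8 and 11.3, 1.18 ± 0.35, adjusted p = 0.013). Smaller rises were measured at Maml3 (0.87, adjusted p = 0.0037), Spen (0.63, adjusted p = 0.048), Psen2 (0.59, adjusted p = 0.014) and the Rbpj start site inside the gene body (0.55, adjusted p = 0.022). At Spen, Psen2 and Rbpj the signal itself overlapped between the groups, and only the centred values separated.

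Receptor regions went the other way. The Notch1 start site region, chr2:26503691-26503957, had 73.0, 75.4 and 94.8 at 24 h and 172.6 and 176.9 in blood, a fall by 0.84 on the log2 scale (SE 0.19, adjusted p = 0.0016). A region outside the Notch1 gene body, chr2:26534660-26534960, fell further (12.2, 22.7 and 18.0 against 53.7 and 62.7, -1.44 ± 0.33, adjusted p = 0.0014). Notch2 fell at chr3:98069297-98069722 (12.2, 8.17 and 25.6 against 43.1 and 43.7, -1.32 ± 0.38, adjusted p = 0.0099). Notch3 was mixed: chr17:32113491-32113879, outside the gene body, rose (74.0, 60.8 and 38.9 against 24.4 and 35.9, 1.16 ± 0.28, adjusted p = 0.0025), while chr17:32163924 fell by 0.81. The 4 Notch4 regions ranged from -0.33 to 0.58 with a smallest adjusted p of 0.099.

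Among the ligands, the Dll4 region at chr2:119337929, 2263 bp from the gene body, had 134.8, 99.0 and 94.8 at 24 h and 175.0 and 255.1 in blood. It fell by 0.69 (SE 0.17, adjusted p = 0.0024), with no overlap. Jag2 fell at chr12:112895064 (-0.68 ± 0.20, adjusted p = 0.012), while the Dll1 region (-0.32, adjusted p = 0.58) and both Jag1 regions (-0.03 and 0.48, smallest adjusted p = 0.14) did not pass. Regions called in every 24 h library and no blood library numbered 8 of 301 (3.02% of all such regions), 2 of them at Maml2. Among the 8 was the Dll4 start site window, chr2:119325525-119325833 (15, 21.8 and 21.8 at 24 h). It need not be closed in blood, where no peak was called. Regions called in both blood libraries and no 24 h library numbered 21 (4.49%), with 3 each at Dtx2, Maml3, Notch1 and Notch2 and 2 at Rbpj. The 3 Notch1 regions had 14.7 and 21.1, 9.77 and 7.75, and 17.9 and 10.6 in blood. Target genes gave 9 higher and 3 lower of 30 (Hes1 1.70, adjusted p = 2.7e-07; Myc 1.27) and other pathway genes 9 and 10 of 95 (Neurl1b -1.40).

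Member calls at 24 h numbered 18 without blood library 1 and 8 without blood library 2, against 34 with both, and the 24 h libraries gave 21, 26 and 48 when 1 was left out in turn. Of the 12 named genes, Maml2, Dtx4 and Notch1 kept their calls in each of these 5 refits. Without blood library 2, Dll4 (-0.64, adjusted p = 0.075), Maml3 (0.80, 0.068), Jag2 (-0.74, 0.084), Fbxw7 (0.83, 0.24), Notch2 (-1.53, 0.057), Psen2 (0.64, 0.088) and Spen (0.64, 0.20) were lost. Without blood library 1, Notch3 (1.07, adjusted p = 0.05), Jag2 (-0.65, 0.12), Notch2 (-1.15, 0.15), Psen2 (0.52, 0.15), Rbpj (0.32, 0.36) and Spen (0.60, 0.21) were lost. Without 24 h library 1, Fbxw7 (0.99, adjusted p = 0.070), Psen2 (0.40, 0.16), Rbpj (0.39, 0.17) and Spen (0.53, 0.18) were lost, without 24 h library 2 Notch2 (-0.97, 0.069) and without 24 h library 3 Spen (0.56, 0.072).

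From 24 h to 48 h few shared member regions changed. Of 164 member regions, 3 rose and 4 fell, 4.27% against 5.44% of all (1.92% higher, 3.53% lower). Regions called in both 48 h libraries and no 24 h library numbered 20 of 325 (5.09% of all such regions) and the reverse 1 (0.609%), and the members' shares are 6.15% and 0.308%. The 20 included 4 at Maml3, 3 at Maml2 and 2 each at Dtx3, Fbxw7 and Spen. The 2 Dtx3 regions had 17.4 and 14.7, and 10.5 and 16.1, at 48 h. The 48 h libraries had more peaks in all (252 and 284 member regions against 211 to 221 at 24 h), and the part of this in the count was not tested.

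The Jag1 start site region, chr2:137116634-137117305, had 27.9 and 56.5 at 48 h and 71.1, 64.5 and 68.3 at 24 h. It fell by 0.92 (SE 0.26, adjusted p = 0.037), and the 48 h libraries themselves lie far apart. The Notch2 start site region, chr3:98013321-98013661, had 110.7 and 124.7 against 169.4, 155.3 and 144.2 and fell by 0.57 (SE 0.16, adjusted p = 0.035). Dtx4 fell at the upper end of its gene body, chr19:12502025-12502285 (185.6 and 141.6 against 241.5, 199.8 and 194.4, -0.54 ± 0.16, adjusted p = 0.043). Higher signal was found at Maml3, chr3:52017821-52018112 (27.9 and 42.5 against 8.43, 18.2 and 9.48, 1.35 ± 0.36, adjusted p = 0.026). Lfng, a fringe enzyme that extends sugars on Notch receptors, rose at chr5:140597147-140597486, outside its gene body (80.2 and 88.7 against 56.2, 33.6 and 32.2, 0.92 ± 0.25, adjusted p = 0.034). Psen2 rose at chr1:180250094-180250413 (72.3 and 77.0 against 49.6, 32.7 and 28.5, 0.87 ± 0.26, adjusted p = 0.049) and fell by 0.49 at chr1:180256185. None of these groups of values overlap. With quantile normalisation 3 rose and 0 fell, and without centring, a shift of 0.16, 4 rose and 0 fell, so the falls at Jag1, Notch2 and Dtx4 passed only with median centring among these 3 scalings. The Psen2 rise at chr1:180250094 was lost with quantile normalisation. None of the 6 genes kept its call in all left-out refits: without 48 h library 2 all 6 were lost (adjusted p 0.055 to 0.47), without 48 h library 1 all but Dtx4 (0.097 to 0.45), without 24 h library 1 Maml3, Jag1, Notch2 and Dtx4 (0.072 to 0.10) and without 24 h library 2 all but Maml3 (0.059 to 0.13). The refits gave 4, 2 and 15 member calls without 24 h library 1, 2 and 3 and 1 and 0 without 48 h library 1 and 2.

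The other ligand and receptor regions did not pass between 24 h and 48 h. Notch1 (8 regions) ran from -0.18 to 0.62 (smallest adjusted p = 0.12), Notch3 (3) from -0.27 to 0.46 (0.27) and Notch4 (4) from -0.53 to -0.09 (0.34). Dll4 (2) ran from -0.47 to -0.30 (0.14), Jag2 (5) from -0.18 to 0.50 (0.14) and the Dll1 region stood at -0.51 (0.42). Of the target genes 1 region of 31 rose, at Ccnd1 (1.12, adjusted p = 0.024), and of 93 regions of other pathway genes 0 passed.

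Kupffer cells after PBS differed from 48 h macrophages at many member regions, and 7 of the regions that rose were at Maml2, while those of the fringe and protease genes that passed all fell. Of 165 shared regions, 12 rose and 27 fell in Kupffer cells, 23.6% against 26.4% of all (13.7% higher, 12.6% lower). The nuclear complex had 10 higher and 6 lower of 64. Fringe genes had 0 higher and 7 lower of 10 (median log2 change -0.60, all regions -0.01), the proteases 0 and 5 of 23, the endocytic regulators 1 and 6 of 26, the receptors 0 and 3 of 35 and the ligands 1 and 0 of 7. Without centring, a shift of 0.28, 6 member regions rose and 53 fell, and the nuclear complex turned to 6 higher and 12 lower. The direction of the fringe, protease, receptor and endocytic counts was the same under each scaling.

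The largest change was at Maml2, chr9:13701839-13702089, with 117.5 and 113.1 in Kupffer cells and 19.2 and 26.4 at 48 h (2.59 ± 0.25, adjusted p = 2.7e-12). The Maml2 region chr9:13662204-13662609, at a start site inside the gene body, covers the printed Maml2 stretch. It had 51.2 and 48.9 against 27.0 and 25.7 (log2 change 1.18). At Maml3 the region chr3:51709142-51709584 had 152.6 and 134.2 against 45.3 and 36.7 and rose by 2.07 ± 0.22 (adjusted p = 2.8e-11). Spen rose at chr4:141500583-141500919 (25.6 and 28.8 against 16.6 and 11.7, 1.20 ± 0.34, adjusted p = 0.0062) and Fbxw7 at chr3:84771998-84772238 (90.0 and 86.3 against 57.5 and 60.1, 0.86 ± 0.22, adjusted p = 0.0022). In these regions the Kupffer values lie above all 48 h values.

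On the lower side, Dtx4 fell at chr19:12501503-12501772, near the upper end of the gene body, from 131.6 and 121.0 at 48 h to 31.3 and 45.1 in Kupffer cells (-1.44 ± 0.22, adjusted p = 1.1e-06). Rbpj fell at chr5:53546848-53547174 (20.9 and 11.5 against 48.8 and 38.9, -1.15 ± 0.33, adjusted p = 0.0078) and Rfng at chr11:120776110-120776407 (32.2 and 28.8 against 83.7 and 74.1, -1.06 ± 0.26, adjusted p = 0.0014). Lfng had 5 lower regions, the largest at chr5:140596857 (9.48 and 20.1 against 27.9 and 45.5, -1.02 ± 0.34, adjusted p = 0.021). Mfng (-0.87, adjusted p = 0.049) and Psen2 (-0.92, adjusted p = 0.031) fell as well. Among the receptors, Notch2 fell at chr3:98066493 (39.8 and 37.4 against 87.2 and 91.7, -0.91 ± 0.24, adjusted p = 0.0028), Notch1 by 0.66 (adjusted p = 0.037) and Notch4 by 0.56 (adjusted p = 0.020), while the 3 Notch3 regions ranged from -0.48 to 0.39 (smallest adjusted p = 0.15). The Notch4 region, chr17:34587473, lies near the upper end of the gene body, and Gpsm3 lies 1263 bp beyond that end. By position it may belong to either gene.

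The Dll1 region chr17:15380563 had 11.4 and 35.5 in Kupffer cells and 9.59 and 13.9 at 48 h. Its values overlap, and it passed only after centring (1.04 ± 0.36, adjusted p = 0.027). The Dll4 regions stood at -0.16 and 0.02 (smallest adjusted p = 0.62), Jag1 at 0.10 and 0.27 (0.53) and Jag2 at -0.25 and -0.18 (0.38). Of 338 regions called in either group, 12 were called only in both Kupffer libraries (4.53% of all such regions) and 45 only in both 48 h libraries (12.8%). Kupffer-only regions included 5 at Maml3, such as chr3:51708656 (41.7 and 33.6), and 2 at Fbxw7, of which chr3:84815488 overlaps a start site window (49.3 and 60.4). The 48 h only regions included 5 at Fbxw7, 4 each at Maml2 and Psen2, 3 each at Adam10, Dtx2, Jag2 and Maml3, and 2 each at Dll4, Itch, Maml1, Notch2, Numb and Rbpj. Target genes had 2 higher and 7 lower of 31 (Nrarp -2.19, adjusted p = 5.4e-07; Ccnd1 -1.70) and other pathway genes 9 and 10 of 79 (Dtx3l 1.32). Of 13 named genes, Maml2, Maml3, Dtx4, Fbxw7 and Notch2 kept their calls when any 1 library was left out. Rfng was lost without 48 h library 1 (-0.93, adjusted p = 0.055), Spen without 48 h library 2 (0.92, adjusted p = 0.12), Rbpj without Kupffer library 2 (-0.63) or 48 h library 1 (-0.94), and Dll1 without the same 2 libraries (0.38 and 0.84). Lfng was lost without Kupffer library 1 (-0.56, adjusted p = 0.35) or 48 h library 2 (-0.71, 0.25), Psen2 without Kupffer library 2 (-0.47, 0.36) or either 48 h library, Notch4 without Kupffer library 1 (-0.45, 0.12) or either 48 h library, and Mfng without any of the 4 (adjusted p 0.099 to 0.19). Member calls numbered 22 without Kupffer library 1, 38 without Kupffer library 2, 17 without 48 h library 1 and 20 without 48 h library 2.

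**Figure D3:**
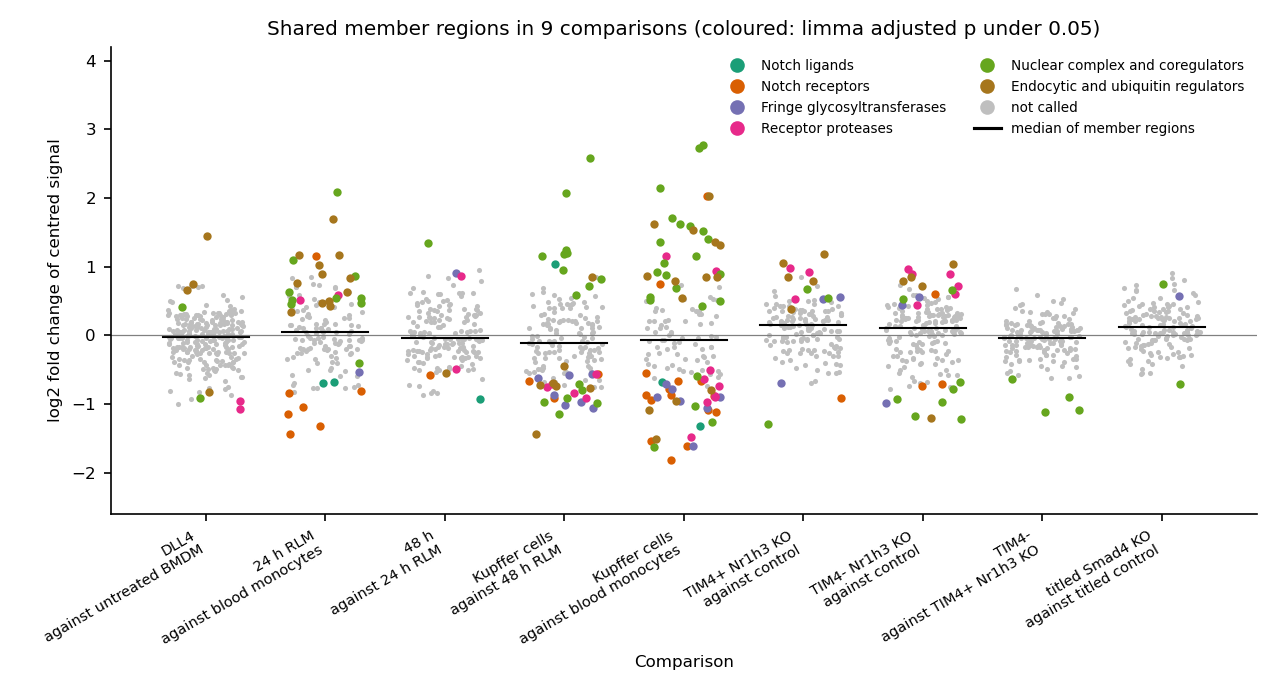
Log2 fold change of centred signal for all shared member regions in the 9 comparisons; coloured points passed limma's adjusted p of 0.05 and are coloured by role, grey points did not, and black lines are the medians of member regions. The 2 Kupffer cell comparisons hold the largest changes, up to 2.77 at Maml2, and the medians stay between -0.11 and 0.15.

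Set directly against blood monocytes, Kupffer cells differed at a share of member regions near that of all regions: 33 rose and 37 fell of 142, 49.3% against 51.0% of all (25.7% higher, 25.3% lower). This comparison shares its libraries with the 2 before it, so the same regions are not independent here. Receptors had 2 higher and 13 lower of 32 (median -0.52, all regions -0.00), fringe genes 0 and 7 of 8 (median -0.90), proteases 2 and 7 of 20 and ligands 0 and 2 of 6. The nuclear complex had 19 higher and 4 lower of 53 and the endocytic regulators 10 and 4 of 23. Without centring, a shift of 0.39, 15 member regions rose and 46 fell, with 9 and 7 in the nuclear complex and 5 and 5 in the endocytic regulators. The mean relative level of Lfng (regions called in all libraries) was 0.977 in PBS Kupffer cells, 1.51 at 48 h and 1.73 in blood. In Nr1h3 and titled Smad4 controls Lfng had 1.76 and 1.99. Notch4 had 0.76 in PBS Kupffer cells, 1.17 in blood and 1.32 and 1.63 in those controls. Notch1 had 0.667, 0.972, 1.15 and 1.30 in the same order. Other control Kupffer cells thus did not share these low levels. Mfng, Rfng and Notch2 were below blood in all of these Kupffer groups.

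Maml2 rose most, at chr9:13536721-13537043 (55.9 and 50.8 in Kupffer cells against 11.4 and 7.75 in blood, 2.77 ± 0.34, adjusted p = 2.8e-10), with 9 regions higher and 1 lower. Its start site region inside the gene body rose by 2.15 (51.2 and 48.9 against 12.2 and 16.2). Maml3 had 6 regions higher and 1 lower, led by chr3:51709142 (152.6 and 134.2 against 21.2 and 35.9, 2.72 ± 0.24, adjusted p = 7.6e-16). All 7 Fbxw7 regions tested in this comparison rose, led by chr3:84771998-84772238 outside the gene body (90.0 and 86.3 against 24.4 and 31.0, 2.04 ± 0.26, adjusted p = 8.3e-10). Rbpj rose at chr5:53594044 (1.16, adjusted p = 4.8e-05), and Spen fell at chr4:141552524 (-1.27, adjusted p = 4.9e-06).

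The Notch1 start site region had 53.1 and 38.3 in Kupffer cells and 172.6 and 176.9 in blood, a fall by 1.54 (SE 0.21, adjusted p = 7.1e-09). Notch1 fell also at chr2:26534660 (7.58 and 18.2 against 53.7 and 62.7, -1.81 ± 0.33, adjusted p = 5.2e-06). Notch2 had 1 region higher and 7 lower, the largest fall at chr3:97994007 (15.2 and 20.1 against 58.6 and 91.6, -1.61 ± 0.30, adjusted p = 5e-06), and its start site fell by 0.87 (68.2 and 81.5 against 163.6 and 198.8). Notch3 again rose at chr17:32113491 (85.3 and 103.5 against 24.4 and 35.9, 2.02 ± 0.25, adjusted p = 3.6e-10) and Notch4 fell at chr17:34587473 (-1.08, adjusted p = 4.1e-07). The Dll4 region at chr2:119337929 had 59.7 and 69.0 against 175.0 and 255.1 (-1.31 ± 0.18, adjusted p = 1.2e-08) and the Jag1 start site 42.7 and 36.4 against 64.3 and 109.2 (-0.68 ± 0.25, adjusted p = 0.018). Dll1 (0.22, adjusted p = 0.63) and Jag2 (-0.42 and 0.21, smallest adjusted p = 0.074) did not pass.

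Of the remaining genes, Dtx4 rose at chr19:12475438 (28.4 and 41.2 against 19.5 and 9.87, 1.63 ± 0.35, adjusted p = 8.8e-05) and fell at chr19:12501503 (-1.50), and Rfng (-1.61, adjusted p = 3.8e-08) and Psen2 (-1.47, adjusted p = 6e-05) fell. Of 311 regions called in either group, 32 were called only in both Kupffer libraries (12.8% of all such regions), with 8 at Maml2, 7 at Maml3, 6 at Fbxw7 and 2 each at Notch2 and Spen. Another 37 were called only in both blood libraries (15.9%), with 5 at Maml3, 4 each at Dtx2, Jag2 and Notch1, 3 each at Dtx4, Maml2 and Notch2 and 2 at Mfng. The Jag2 regions include a start site window, chr12:112929481 (13.8 and 24.0 in blood). The Kupffer-only regions include the Dll1 start site window, chr17:15375644 (10.4 and 17.3 in Kupffer cells). Target genes had 10 higher and 9 lower of 29 (Myc 2.05; Hes1 1.79) and other pathway genes 13 and 20 of 71 (Neurl1b 2.07). Of 14 named genes 13 kept their calls without any 1 library. Jag1 was lost without Kupffer library 2 (-0.45, adjusted p = 0.17) or blood library 2 (-0.50, adjusted p = 0.23).

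Some regions named above were then read in the other groups, as descriptions. Those of Maml3, Maml2 and Dtx4 had the largest change of their gene between Kupffer cells and 48 h macrophages. The Dll4 region was taken from the comparison with blood, and those of Notch1 and Notch2 are their start sites. The raw signal is not centred, so each region is also given relative to the library's median over regions called in all 23 libraries. Control Kupffer libraries, here and in the next paragraph, include those titled Smad4 control, which carry Clec4f-cre by their strain labels. The Maml3 region at chr3:51709142 had 152.6 and 134.2 in PBS Kupffer cells, 126.7 and 93.7 in Nr1h3 controls and 72.7 and 85.8 in libraries titled Smad4 control, against 21.2 and 35.9 in blood, 22.8 to 40.3 at 24 h and 26.7 to 31.9 in the 4 BMDM libraries. It was therefore above all monocyte, early macrophage and cultured values in each control Kupffer library, though the 3 control groups differ among themselves. Relative to the median, these libraries had 1.76 to 2.64 at Maml3 and the blood, repopulating and cultured ones 0.267 to 0.584. The Maml2 region at chr9:13701839 was called in 18 of 23 libraries, with 117.5 and 113.1 in PBS Kupffer cells, 74.0 and 50.8 in Nr1h3 controls and 46.6 and 43.7 in titled Smad4 controls. Where it was called in blood, at 24 h and in BMDM it had 8.43 to 11.4. On the relative scale Maml2 had 0.897 to 2.03 in control Kupffer cells and 0.0949 to 0.163 in those libraries.

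Dtx4 at chr19:12501503 had the reverse order: 120.5 and 168.4 in blood, 132.8 to 178.9 at 24 h, 131.6 and 121.0 at 48 h and 138.4 to 195.6 in BMDM, against 31.3 to 62.9 over the 6 control Kupffer libraries. All 11 blood, repopulating and cultured libraries lie above those 6, also on the relative scale (1.47 to 2.46 against 0.542 to 1.29). The Notch1 start site had 172.6 and 176.9 in blood and 173.8 to 201.1 in BMDM, against 38.3 to 94.8 over repopulating and control Kupffer libraries. Its relative values lie closer together, at 1.78 to 2.47 in blood and BMDM, 0.938 to 1.43 in repopulating cells and 0.571 to 1.67 in control Kupffer cells, of which the titled Smad4 controls had 1.62 and 1.67. The Notch2 start site had 163.6 and 198.8 in blood and 182.4 to 225.1 in BMDM, 144.2 to 169.4 at 24 h, 110.7 and 124.7 at 48 h and 43.6 to 84.4 in control Kupffer cells (relative to the median 1.87 to 2.34 in blood and BMDM and 1.13 to 1.32 in control Kupffer cells). The Dll4 region at chr2:119337929 had 175.0 to 255.1 in blood and BMDM and 53.5 to 72.7 in control Kupffer cells. Relative to the median Dll4 had 1.82 to 2.81 in blood and BMDM, 1.36 to 1.78 at 24 h, 1.49 and 1.65 in titled Smad4 controls and 0.974 to 1.05 in the other control Kupffer cells, so the titled Smad4 controls lie in the range of 24 h cells. At 48 h Dll4 had a mean of 1.10 ± 0.111 (SD).

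**Figure D4:**
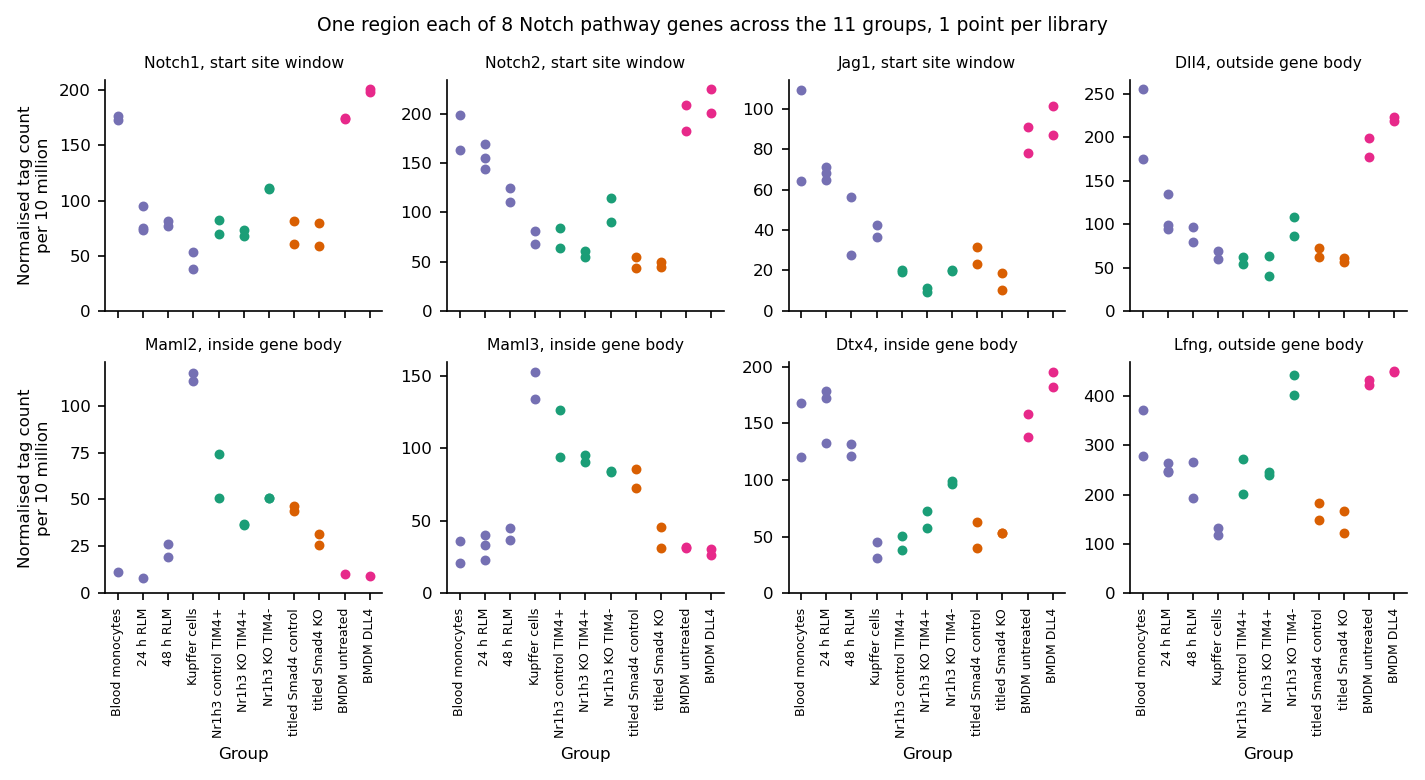
Signal per library (normalised tag count per 10 M tags) at 1 region each of 8 members over the 11 groups, with colours by experiment and a point for each library that called the region. The Maml2 and Maml3 regions are highest in PBS Kupffer cells, while the Notch1, Notch2, Jag1, Dll4 and Dtx4 regions are higher in blood monocytes and BMDM than in PBS Kupffer cells.

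**Figure D5:**
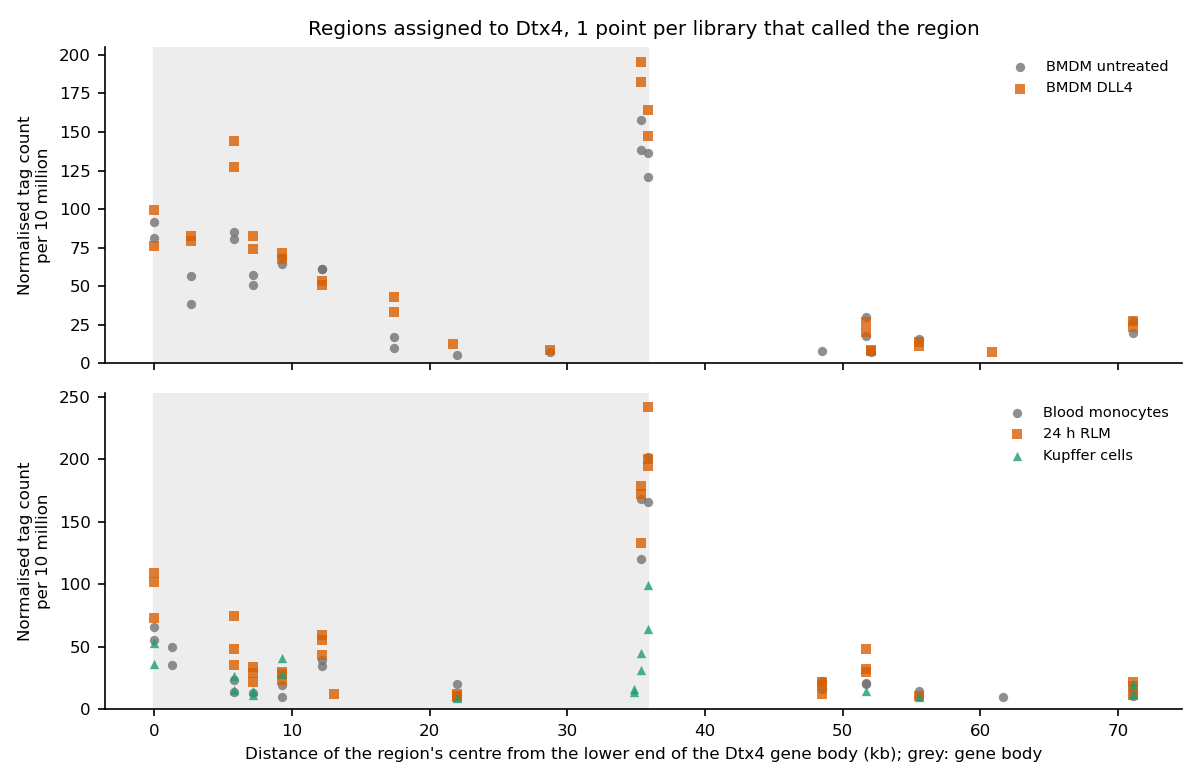
Signal of the Dtx4 regions by distance along the gene body in kb: above, untreated and DLL4-treated BMDM, below, blood monocytes, 24 h macrophages and PBS Kupffer cells, with 1 point for each library that called the region and the gene body in grey. The regions with the strongest signal lie at the upper end, where Kupffer cells have 31.3 and 45.1 against 120.5 and 168.4 in blood at chr19:12501503, and toward the lower end, where DLL4-treated cells have 127.2 and 144.3 at chr19:12471915.

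Loss of Nr1h3 in TIM4+ Kupffer cells was accompanied by higher signal at Dtx4 and Psen2. Of 148 member regions, 12 rose and 3 fell in the knockout libraries, 10.1% against 8.78% of all (4.86% higher, 3.91% lower), with a median of 0.15 against 0.08. The endocytic regulators had 5 higher and 0 lower of 28, the proteases 3 and 0 of 23, the fringe genes 2 and 1 of 9, the nuclear complex 2 and 1 of 51, the receptors 0 and 1 of 29 and the ligands 0 and 0 of 8. The rises depend on the scaling: without centring, a shift of 0.31, 0 member regions rose and 3 fell, and with quantile normalisation 8 rose and 3 fell. TIM4+ knockout libraries had a peak at 5 to 8 of 9 Kupffer start site windows (summed signal 358.2 to 548.9) and controls at 7 to 8 (518.2 to 532.9). The part of cell composition was not tested.

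At Dtx4 the region chr19:12473278-12473658 had 32.6 and 55.3 in knockout and 24.3 and 21.1 in control libraries and rose by 1.19 ± 0.25 (adjusted p = 0.00019). Another 3 Dtx4 regions rose by 0.79 to 1.06, among them chr19:12501503 (0.86). The Psen2 region chr1:180246185-180246489, at a start site inside the gene body, had 39.6 and 43.7 against 28.3 and 23.1 (0.99 ± 0.25, adjusted p = 0.0026). Maml2 fell at chr9:13517957-13518366 (7.02 and 10.2 against 27.8 and 27.7, -1.29 ± 0.31, adjusted p = 0.0014), Notch3 at chr17:32163924-32164210 (15.3 and 14.3 against 32.4 and 39.0, -0.90 ± 0.28, adjusted p = 0.022) and Lfng at chr5:140597147 (35.7 and 48.5 against 103.5 and 68.7, -0.69 ± 0.19, adjusted p = 0.0083). In these 5 regions knockout and control values did not overlap. Spen (0.68, adjusted p = 0.0067), Rbpj (0.55, adjusted p = 0.018) and the Numb start site (0.38, adjusted p = 0.047) passed after centring although their signal overlapped.

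Ligand regions ranged from -0.55 to 0.43 in TIM4+ knockouts (Dll4 -0.55 to 0.12, smallest adjusted p = 0.31; Jag1 -0.54 and -0.38, 0.31; Jag2 0.05 to 0.43, 0.13), and Dll1 had no shared region. Notch1 (7 regions, -0.26 to 0.43, 0.069), Notch2 (15 regions, -0.54 to 0.50, 0.17) and Notch4 (4 regions, -0.50 to 0.37, 0.11) did not pass. Of 278 regions called in either group, 4 were called only in both knockout libraries (1.06% of all such regions), 2 of them at Maml3. Control-only regions numbered 15 (7.69%), with 3 at Notch2 and 2 each at Fbxw7, Maml2 and Maml3. They include the Dll1 start site window, chr17:15375644, a weak region (12.7 and 7.92 in the controls). Target genes had 0 higher and 1 lower of 28 (Il2ra -1.07), other pathway genes 6 and 2 of 81 (Pofut1, the enzyme that adds the sugar fringe extends, -1.48). Only Dtx4 kept its call in each left-out refit among the 8 genes. Maml2 was lost without control library 2 (-1.14, adjusted p = 0.086), Psen2 without knockout library 1 (0.91, adjusted p = 0.054), Notch3 without knockout library 2 (-0.71) or control library 2 (-0.61), Lfng without knockout library 1 (-0.62) or control library 1 (-0.55) and Spen without control library 2 (0.48). Rbpj was lost without knockout library 2 (0.38, adjusted p = 0.23) or either control library (0.56, 0.13; 0.55, 0.14), and Numb without any of the 4 (adjusted p 0.087 to 0.42). Member calls numbered 10 and 17 without knockout library 1 and 2 and 9 and 8 without control library 1 and 2.

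TIM4- cells of the knockouts were compared with TIM4+ control cells, which differ in the sorting gate as well as the genotype, and which are the same control libraries as above. Among shared regions, those of Psen2 and Dtx4 that passed were higher and the 4 of Maml3 that passed were lower, while 5 other Maml3 regions were called only in TIM4- knockouts. Of 174 shared member regions, 15 rose and 10 fell, 14.4% against 13.7% of all (7.03% higher, 6.68% lower). The proteases had 6 higher and 0 lower of 24, all 6 at Psen2, and the nuclear complex 2 higher and 6 lower of 62, of which 4 lower were at Maml3. The receptors had 1 and 2 of 35, fringe genes 2 and 1 of 11, endocytic regulators 4 and 1 of 32 and ligands 0 and 0 of 10. Centring lowered all changes by 0.40: without it 57 member regions rose and 0 fell, and the nuclear complex turned to 16 higher and 0 lower. The Kupffer windows had a peak at 6 of 9 genes in TIM4- knockouts (summed signal 500.2 to 505.9), and the monocyte windows at 0 to 1 of 7. Timd4, Marco and Nr1h3 had none in TIM4- knockouts, and Marco had none in either control library and Nr1h3 none in control library 1, while Timd4, the gene of the gate, had a peak in both. The part of cell composition in the TIM4- differences was not tested.

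The Psen2 region chr1:180250094, which also rose from 24 h to 48 h, had 139.6 and 117.1 in TIM4- knockout and 57.3 and 41.6 in control libraries (0.97 ± 0.18, adjusted p = 5.1e-06). Dtx4 rose at chr19:12475438-12475771 (105.5 and 105.1 against 41.6 and 35.0, 1.04 ± 0.19, adjusted p = 5.7e-06), and 2 further Dtx4 regions by 0.85 and 0.73. Rbpj rose at chr5:53509526 (166.7 and 183.6 against 93.1 and 74.6, 0.66, adjusted p = 0.00098), Notch1 at chr2:26483561 (0.60, adjusted p = 0.0022), Fbxw7 at chr3:84921703 (0.80, adjusted p = 0.046) and Spen at chr4:141477645 (0.53, adjusted p = 0.0073). Lfng fell at chr5:140597147 (58.3 and 53.4 against 103.5 and 68.7, -0.99 ± 0.19, adjusted p = 9.9e-06) and Maml2 at chr9:13517957 (10.6 and 23.4 against 27.8 and 27.7, -1.18 ± 0.30, adjusted p = 0.0019). The largest Maml3 fall was at chr3:51720284-51720678, a weak region (7.07 and 7.08 against 12.1 and 14.5, -1.22 ± 0.35, adjusted p = 0.0080). Numb fell at chr12:83884989 with overlapping signal (11.8 and 4.90 against 21.4 and 9.24, -1.20 ± 0.35, adjusted p = 0.0087), and Notch2 at chr3:97994822 (-0.73, adjusted p = 0.029).

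The Maml3 region at chr3:51709142, picked because it was high in Kupffer cells and therefore chosen after its values were seen, had 84.2 and 83.9 in TIM4- knockouts against 126.7 and 93.7 (-0.77, adjusted p = 0.00019). The ligands did not pass: Dll1 stood at -0.54 and -0.37 (smallest adjusted p = 0.33), Dll4 at -0.30 to 0.33 (0.23), Jag1 at -0.42 and -0.39 (0.36) and Jag2 at 0.15 to 0.44 (0.070). Notch3 (-0.55 to 0.03, 0.13) and Notch4 (-0.70 to 0.27, 0.17) did not pass. Of 310 regions called in either group, 20 were called only in both TIM4- libraries (6.60% of all such regions), with 5 at Maml3, 3 at Jag2 and 2 each at Dtx4, Fbxw7 and Psen2. The Maml3 regions include a start site window, chr3:52104894 (90.1 and 74.1). Control-only regions numbered 5 (3.50%), 2 of them at Adam10. Of these 25 group-only regions, 6 lie within 500 bp of a region called in the other group, so such a region need not be closed there. TIM4- libraries had 43.8% and 41.27% of tags in peaks against 33.35% and 25.98% in controls, and the part of this was not tested. Target genes had 3 higher and 1 lower of 31 (Il2ra -1.39; Ccnd1 0.98) and other pathway genes 13 and 7 of 97 (Pofut1 -2.00). Dtx4, Lfng, Psen2 and Rbpj kept their calls without any 1 library. Maml2 was lost without knockout library 1 (-0.61) or control library 2 (-1.02), Maml3 without the same libraries (-1.19 and -0.94), Notch1 without knockout library 2 (0.52) or control library 2 (0.54), Spen without knockout library 1 (0.48) or control library 2 (0.41), Numb without knockout library 2 (-0.64) or control library 1 (-0.80), and Fbxw7 (adjusted p 0.10 to 0.20) and Notch2 (0.062 to 0.20) without any of the 4. Member calls numbered 16, 17, 14 and 13 without knockout library 1 and 2 and control library 1 and 2.

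Within the knockouts, TIM4- and TIM4+ cells differed at 4 of 156 member regions, all lower in TIM4- cells, which is 2.56% against 2.11% of all (0.607% higher, 1.50% lower). All 4 belong to the nuclear complex, 3 at Maml3 and 1 at Spen. The Maml3 region chr3:51720284 had 7.07 and 7.08 in TIM4- and 7.66 and 11.6 in TIM4+ libraries (-1.12 ± 0.34, adjusted p = 0.049). The Maml3 region at chr3:51709142, again read because it was high in Kupffer cells, had 84.2 and 83.9 against 95.1 and 90.8 (-0.89 ± 0.18, adjusted p = 0.00027). The Spen region chr4:141545890 had 124.9 and 108.4 against 101.5 and 113.3 and fell only after centring (-0.63 ± 0.17, adjusted p = 0.018; 0.12 without centring). The centring shift is largest in this comparison, 0.75 on the log2 scale, and without it 109 member regions rose and 0 fell. None of the 4 falls, those at Maml3 included, thus passed without centring. With quantile normalisation 0 rose and 3 fell. The Maml3 call at chr3:51720284 was kept in 1 of 6 other settings, and was lost with quantile normalisation and with a replicate block.

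Regions called only in both TIM4- libraries numbered 26 of 288 (10.9% of all such regions) against 1 the reverse (0.559%). They included 5 at Maml3, 3 at Maml2 and 2 each at Dtx4, Fbxw7, Psen2 and Rbpj, and TIM4- libraries had more member regions in all (241 and 251 against 188 and 199). No ligand or receptor region passed: the smallest adjusted p was 0.77 for Dll4 (-0.22 to 0.21), 0.93 for Jag1 (-0.08 to 0.11), 0.80 for Jag2 (-0.26 to 0.08), 0.33 for Notch1 (-0.16 to 0.45), 0.21 for Notch2 (-0.61 to 0.26), 0.71 for Notch3 (-0.15 to 0.31) and 0.50 for Notch4 (-0.20 to 0.40). Of target genes 0 of 30 and of other pathway genes 0 of 85 passed in limma. Maml3 at chr3:51720284 was lost whichever library was left out (adjusted p 0.17 to 0.29) and Spen without either TIM4- library (0.075 and 0.28) or TIM4+ library 1 (0.26). The refits gave 2 and 1 member calls without TIM4- library 1 and 2 and 1 and 2 without TIM4+ library 1 and 2.

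Kupffer cells titled Smad4 knockout and control differed at 3 of 147 member regions, 2 higher and 1 lower in those titled knockout, 2.04% against 3.07% of all (1.57% higher, 1.50% lower). SMAD4 is the shared mediator of TGF-beta and BMP signals. The Maml3 region chr3:52000105-52000401 had 67.0 and 88.7 in libraries titled knockout and 57.5 and 57.4 in those titled control (0.75 ± 0.17, adjusted p = 0.0034). The Maml3 region at chr3:51709142 had 31.3 and 45.9 against 72.7 and 85.8, without overlap (-0.70 ± 0.19, adjusted p = 0.015). Mfng passed with overlapping signal (65.3 and 98.0 against 57.5 and 79.8, 0.57 ± 0.17, adjusted p = 0.034). Without centring, a shift of 0.34, 0 member regions passed, and with quantile normalisation 1 rose and 1 fell. Maml3 at chr3:52000105 was lost without the titled knockout library 2 (0.69, adjusted p = 0.059) or titled control library 2 (0.57, adjusted p = 0.20), and Mfng without titled knockout library 2 (0.42) or either titled control library (0.48 and 0.62). Member calls numbered 3, 1, 1 and 0 without titled knockout library 1 and 2 and titled control library 1 and 2.

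Ligands and receptors did not pass between the titled Smad4 groups. Dll1 stood at 0.59 (adjusted p = 0.39), Dll4 at 0.15 to 0.55 (0.48), Jag1 at -0.55 and -0.45 (0.38) and Jag2 at -0.30 and -0.19 (0.55). Notch1 ran from -0.05 to 0.66 (0.24), Notch2 from -0.54 to 0.84 (0.064), Notch3 from -0.35 to 0.21 (0.30) and Notch4 from -0.23 to 0.91 (0.091). Of 278 regions called in either group, 29 were called only in both titled control libraries (6.97% of all such regions), with 7 at Maml3, 4 each at Maml2 and Notch2 and 2 at Notch3, and 5 only in those titled knockout (1.24%). Target genes had 0 of 26 calls in limma and other pathway genes 4 higher and 1 lower of 88 (Dtx3l 0.84). The Kupffer windows had a peak at 6 of 9 genes in libraries titled knockout, with none at Clec4f (summed signal 213.8 to 256.8), and at 7 to 8 in those titled control, both with a peak at Clec4f (316.8 to 376.0). The part of this difference in the member regions was not tested.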

How the data were processed

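ATAC-seq peak lists of 23 mouse libraries were used as deposited. The submitters' processing notes name Bowtie2, HOMER and mm10, without versions. The signal is the normalised tag count that the authors obtained with HOMER findPeaks for each peak, per 10 M tags, per the file headers. The findPeaks score of each peak, also per the file headers, served only an alternative peak filter (at least 15). Each library had its own peak calling (size 200 bp, distance between peaks 200 bp, FDR 0.001, 4 times the signal of the surrounding 10 kb, local p 0.0001), per the file headers. Depth was 10.4 to 18.4 M tags.

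Of 1605886 peaks, 1205 outside the autosomes and X were left out. Overlapping peaks were merged into regions and joined to the closest gene (GRCm38.p6), which placed 88.7% of them. A region with a peak in each library of the 2 groups compared was tested as log2 of signal plus 1, minus the library's median, with limma 3.58.1 in R 4.3.3 (two-sided, mean-variance trend, Benjamini-Hochberg over all such regions, adjusted p of 0.05). Only those 2 groups entered a fit. Fits were checked on simulated data, in which all regions of a comparison were given its median spread. There, planted log2 changes of 1 were recovered at 40% to 87% by comparison and changes of 2 at 100%. Recovery at regions with a larger spread was not simulated. Tables were made with pandas 2.3.3 and numpy 2.4.6 in Python 3.11.15. Named genes are those with a region past the threshold (the 12 with the largest change), those with 2 or more regions in 1 group only, and all ligands and receptors. Members and lists were chosen with earlier results of these data known. Alternatives were 2 other scalings, a pseudocount of 5, a minimum mean of 20, stricter peak rules, other libraries in the fit, a replicate block and left-out libraries. Among the other Notch pathway genes, 1 gene is counted but not reported here by name.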

Additional observations from a re-analysis of the deposited data

How the results depend on the processing

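With 2 or 3 libraries a group, changes of 2-fold were partly missed, and a left-out library leaves 1 in a group of 2 (2 at 24 h), which is then assumed to vary like the other group. Of 1369 refits of 126 named regions, 1143 kept direction and side of the threshold, 192 no longer passed, 17 newly passed and 17 reversed. The causes were not tested. The edgeR alternative on tag counts was not run, since the deposited values are normalised, and for DLL4 and Smad4 a fit with all libraries of the experiment is the same fit.

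Member calls without centring numbered 21 (24 h against blood), 4 (48 h against 24 h), 59 (Kupffer against 48 h), 3 (TIM4+ knockout), 57 (TIM4- knockout), 109 (TIM4- against TIM4+) and 0 (titled Smad4). With quantile normalisation they numbered 4 (DLL4), 3 (48 h against 24 h) and 15 (TIM4- knockout), and with all libraries of the experiment 19 (Kupffer against 48 h). Group-only member regions numbered 15 (24 h against blood), 32 (Kupffer against 48 h) and 21 (titled Smad4) with a score of at least 15, and 10 (TIM4- against TIM4+) and 21 (titled Smad4) with peak lists of equal length.

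Leaving out each library in turn gave ranges of calls of 1 to 6 (DLL4), 8 to 48 (24 h against blood), 0 to 15 (48 h against 24 h), 17 to 38 (Kupffer against 48 h), 55 to 65 (Kupffer against blood), 8 to 17 (TIM4+ knockout), 13 to 17 (TIM4- knockout), 1 to 2 (TIM4- against TIM4+) and 0 to 3 (titled Smad4). Group-only regions in the same order ranged over 29 to 47, 34 to 48, 25 to 56, 72 to 98, 88 to 96, 37 to 49, 42 to 55, 44 to 54 and 50 to 58.

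These regions reversed, none of them past the threshold except Spen. Without centring, Jag1 137116634 was -0.012 (Kupffer against 48 h), Dll1 15380563 -0.168 (Kupffer against blood), and for TIM4- against TIM4+ Spen 141545890 was 0.117, Notch2 98055750 0.137, Jag2 112928393 0.491 and Dll4 119326126 0.53 (0.252 with quantile normalisation). Jag1 137116634 was -0.006 with a pseudocount of 5 (TIM4- against TIM4+). With a library left out, Jag2 112917534 ranged from -0.008 to 0.458 and Dll1 15353313 from -0.159 to 0.486 (DLL4), Dll1 15380563 from -0.947 to 0.281 (24 h against blood) and from -0.436, with -0.392 in another refit, to 0.947 (Kupffer against blood), Jag1 137116634 from -0.181 to 0.731 (Kupffer against 48 h) and from -0.16 to 0.407 (TIM4- against TIM4+), and Jag2 112928393 from -0.546 to 0.029, with 0.011 in another refit (TIM4- against TIM4+).

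Replicate numbers did not pair the libraries (correlation of same-numbered deviations -0.038, 0.009, -0.004 and 0.061). With a replicate block the member calls were 7 (DLL4), 22 (TIM4+ knockout), 27 (TIM4- knockout) and 3 (TIM4- against TIM4+). The repopulation and Smad4 groups share no replicate numbers that would allow a block.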
